A study of Mus musculus with 6 samples.

Results

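Slco3a1 was described here by the points at which hnRNP UL1 was found on its chromatin in RAW 264.7 cells, a transformed mouse macrophage line, after 4 h of lipopolysaccharide (LPS) at 100 ng/ml and in untreated cells (0 h). The members were the peaks that name Slco3a1 as their nearest gene, together with any peak inside the gene or up to 20 kb to its sides. There were 74 such peaks among the 9046 complete rows of the 4 h table and 0 among the 8425 rows of the 0 h table. The gene was selected on these counts, being rich in rows at 4 h and without any at 0 h, so the counts by time are a description and were not tested. Each time is 1 ChIP library made with an hnRNP UL1 antibody, and neither culture carried any other treatment according to the labels. The third ChIP sample, 10 h of LPS, has a table of 1153 rows that ends at gene ID ENSMUSG00000022416, before Slco3a1 (ENSMUSG00000025790), and gives no value for this gene. Input DNA was not analysed here.

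Slco3a1 encodes a membrane transporter of the organic anion transporting polypeptide family, whose members carry amphipathic anions such as hormones, conjugated steroids and eicosanoids across the plasma membrane. Its human counterpart OATP3A1 is known to carry prostaglandins and thyroxine. hnRNP UL1 is an RNA-binding protein of the nucleus with known roles in the handling of RNA and in DNA repair.

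A peak appears in the tables as a point of 2 bp, without height, fold enrichment, q-value or extent, so a peak counts as listed or not listed, and the read depth is unknown. No point of a replicate culture exists for either time, and intervals given below cover counting error only. Since points of 1 gene lie close together and depend on each other, the true uncertainty is larger. The tables hold no expression values. As genes named by a row, 3 of 7 macrophage markers, 1 of 2 T cell markers and 0 of 2 B cell markers had points at 4 h, against 2 of 7, 0 of 2 and 0 of 2 at 0 h, which says nothing of their expression.

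At 4 h the points of Slco3a1 lay along the gene, on both sides of a wide gap, and beyond its 5' end. The gene lies on the minus strand of chromosome 7, from 74275418 to 74554780 in GRCm38, and spans 279363 bp. Of the 74 points, 64 lay inside the gene, 10 lay upstream of its 5' end and 0 lay downstream of its 3' end. The window of 20 kb to both sides held 68 points, and each of them named Slco3a1. The outermost point within that window lay 19913 bp upstream, and the first one beyond it lay 27792 bp upstream. The farthest lay 67551 bp upstream, at 74622331. This last point stood 3.92 kb short of Gm39037, a long non-coding RNA gene of the RefSeq annotation. At the other end the points stopped at 74291559, which left the last 16.1 kb of the gene without a point.

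**Figure D1:**
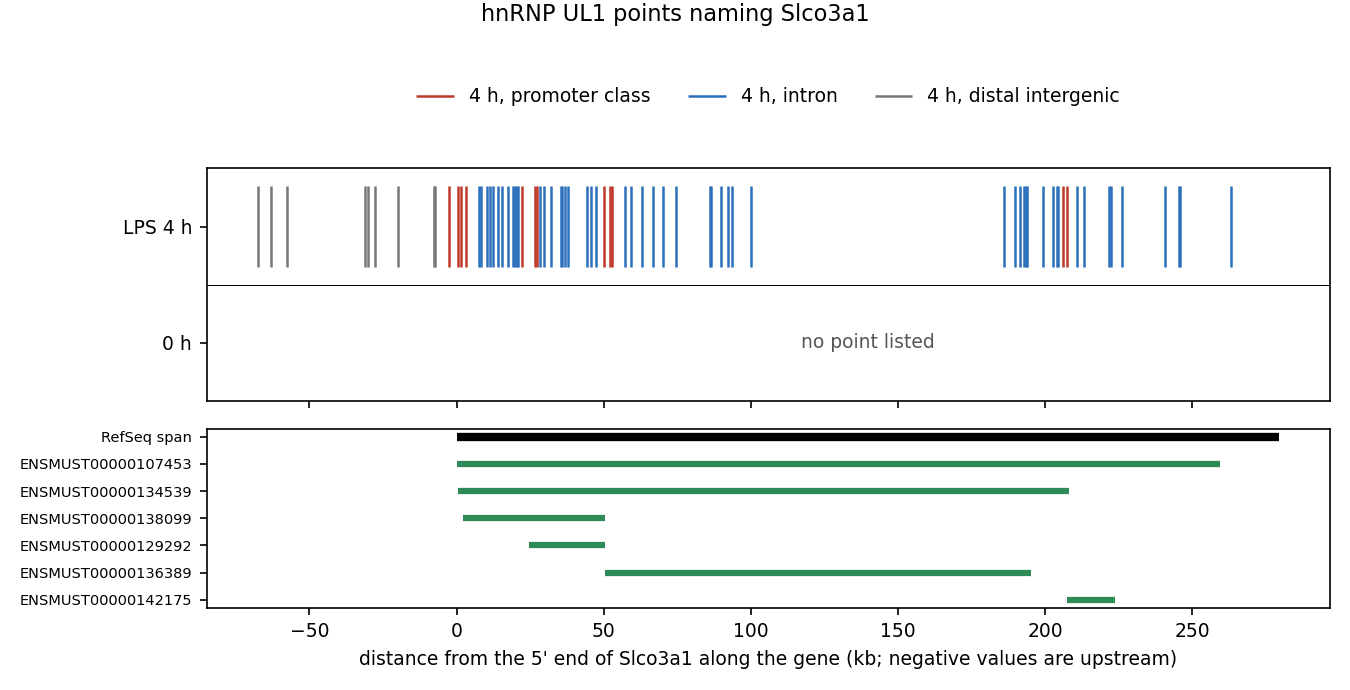
Points naming Slco3a1 at LPS 4 h (upper lane, 1 line per point, coloured by the authors' class) and at 0 h (lower lane), with the RefSeq span (black) and the transcripts listed in the rows (green), by distance from the 5' end in kb. The 74 points at 4 h fall into a dense 5' group that reaches upstream and a second group that begins 186 kb into the gene, with 85.9 kb between them that hold none. The 0 h lane is empty.

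No point was listed at 0 h in the gene, in its flanks or anywhere near it. The nearest 0 h points lay at 73583176 and 75669107, which are 708 kb below the lowest and 1047 kb above the highest 4 h point of Slco3a1. Between them the 0 h table held no point over 2.09 Mb. Such a stretch was not rare at 0 h. Chromosome 7 carried 353 points at 0 h, and 17 of the 352 distances between neighbours were at least this wide, although the median was 75.8 kb. With no 0 h row at the gene, which the selection fixed, no position could be compared between the times.

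The absence at 0 h was common among genes and the number of points at 4 h was not. The tables are ordered by gene ID, and the 4 h table breaks off at ENSMUSG00000027620, so the times were compared only over genes below that ID, 3435 genes that a row of 4 h or 0 h names. Of these, 61.4% were named at 4 h and by no row at 0 h, as Slco3a1 was. At least 20 rows at 4 h and none at 0 h were found for 7 genes, or 0.204%. The gene was picked for being one of them, so nothing is read from this share. The whole 4 h range held 9045 points and that of 0 h 2225, a ratio of 4.07.

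**Figure D2:**
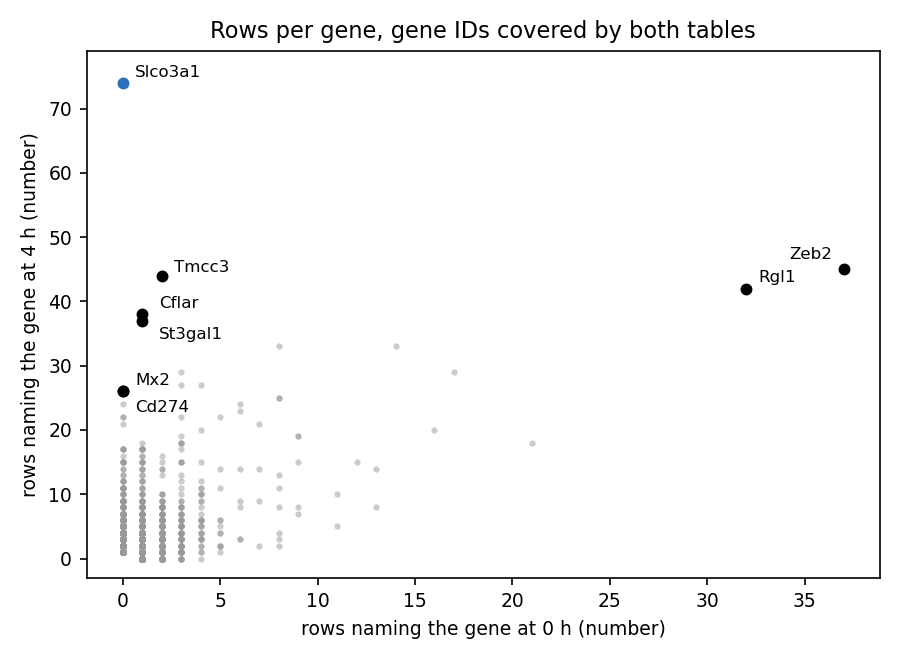
Number of rows naming each of the 3435 genes of the shared ID range at 4 h (vertical axis) and at 0 h (horizontal axis), with Slco3a1 in blue and its comparison genes in black. Slco3a1 stands at 74 and 0, and the next gene by 4 h rows, Zeb2, at 45 and 37.

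By the number of 4 h points Slco3a1 came first in the range. The next 5 genes were Zeb2 with 45 rows, Tmcc3 with 44, Rgl1 with 42, Cflar with 38 and St3gal1 with 37. Zeb2, a transcription factor gene, and Rgl1, which encodes a regulator of Ral GTPases, had 37 and 32 rows at 0 h, unlike Slco3a1. By density it did not come first. Per 100 kb of gene Slco3a1 held 22.9 points and stood in place 27 of the 84 genes with at least 10 points inside, behind Cmpk2 with 103 and Cd274 with 96.2. Within its densest 50 kb it held 29 points, which put it in place 3 after Cflar with 38 and Cpeb4 with 31.

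On chromosome 7 the points of Slco3a1 made up 29.8% (exact 95% Clopper-Pearson interval 24.2 to 36.0%) of the 248 rows of the range at 4 h. Gab2, the gene of a signalling adaptor, had the next most rows there with 8, and Ampd3, an AMP deaminase gene, had 6. At 0 h, 34 of the 353 points of chromosome 7 were rows of the range. The 29.8% is therefore a share of the rows below the last ID of the 4 h table, and not of all points of the chromosome. The gene was selected on its count, so nothing is read from this share.

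The points were crowded towards the 5' end. Before the midpoint of the gene lay 43 of the 64 points inside it, or 67.2% (54.3 to 78.4%), and after it 21. When the gene was divided into 10 equal parts from the 5' end, the parts held 18, 13, 6, 6, 0, 0, 6, 10, 4 and 1 points. The counts were highest in the 2 parts nearest the 5' end, the centre was empty, and part 8 held a smaller second maximum. The stretch between the 5' end and 74504335, where a shorter transcript begins, makes up 18.1% of the gene and held 29 points, or 5.75 per 10 kb. The next 157 kb, down to the start of another transcript at 74347231, held 26 points, or 1.65 per 10 kb. The last 71.8 kb held 9 points, or 1.25 per 10 kb.

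The empty centre was a single gap of 85.9 kb. It ran from 74368718 to 74454584, covered 30.7% of the gene and had 43 points of the gene on its 5' side and 21 on its 3' side. The points on both edges of the gap carry the annotation of intron 2, so it lay inside that intron. Points annotated to intron 2 numbered 12 before the gap and 6 after it, and the gap took up 62.8% of the 137 kb from the first to the last of them. No other RefSeq gene overlaps the span of Slco3a1. A point in the gap that names a gene with an ID past the end of the 4 h table would not be listed there.

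**Figure D3:**
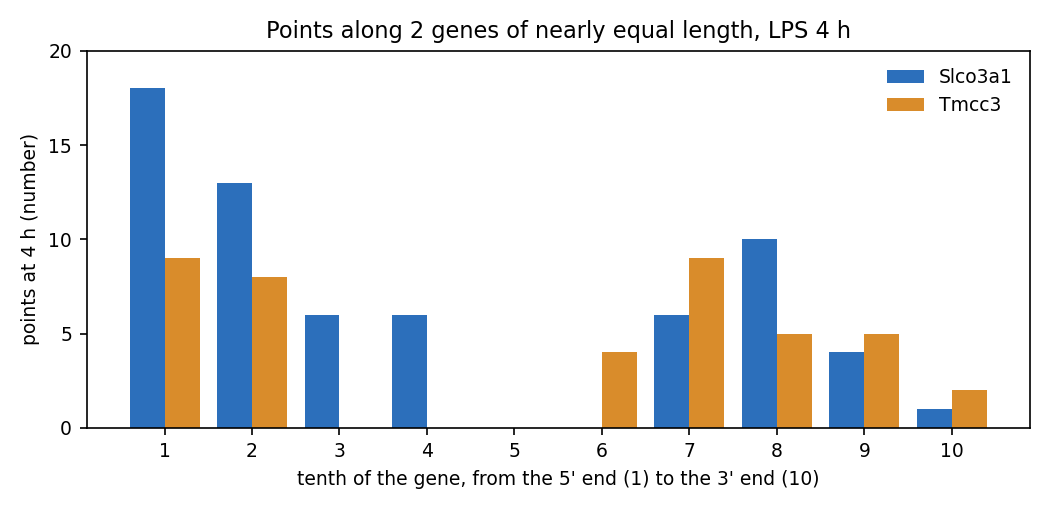
Number of 4 h points in 10 equal parts of Slco3a1 (blue) and Tmcc3 (orange), from the 5' end to the 3' end. Slco3a1 has 18 points in part 1 and none in parts 5 and 6, and Tmcc3 has 9 in part 1 and none in parts 3, 4 and 5.

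Tmcc3, which encodes a transmembrane coiled-coil protein, offered a gene of nearly the same length, 279.3 kb against 279.4 kb. Slco3a1 held 64 of its points inside the gene and Tmcc3 held 42 of its own. The widest gap of Slco3a1 was 85.9 kb and that of Tmcc3 104 kb, so both genes carried a group of points on each side of an empty stretch. Before the midpoint lay 67.2% of the points of Slco3a1 and 40.5% of those of Tmcc3. This share was also taken over 24 other genes with at least 20 rows at 4 h and at least 10 points inside. Mx1 and Mx2, which had no matched RefSeq span, are not among them. The 24 genes had a median of 51.5% and a range of 2.70 to 80.0%, and 3 stood above Slco3a1. No test was made of these differences, since the points of 1 gene come from 1 library.

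Coverage of the gene was incomplete. Of 56 bins of 5 kb, 30 held at least 1 point, or 53.6%, and no bin held more than 5. Tmcc3 had points in 26 of 56 bins (46.4%), and Rgl1 in 21 of 50 (42.0%). The shorter genes were covered more fully, with 24 of 27 bins in Zeb2 and all 10 in Cflar, whose product restrains caspase-8. Across the 24 other genes the share ranged between 12.3 and 100%, with a median of 48.2%, and 11 stood above Slco3a1.

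Neighbouring points of Slco3a1 lay a median of 1923 bp apart (exact 95% order-statistic interval 1440 to 3130 bp, 73 distances). The middle of the distribution, between the 25th and 75th percentiles, ran from 1075 to 4211 bp. Of the 73 distances 37 were at most 2000 bp, 61 at most 5000 bp and 6 over 10000 bp. The closest pair, 336 bp apart, lay in intron 7 at 74308794 and 74309130. Most of the series was therefore an array with a point every few kilobases, broken by a handful of long gaps.

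**Figure D4:**
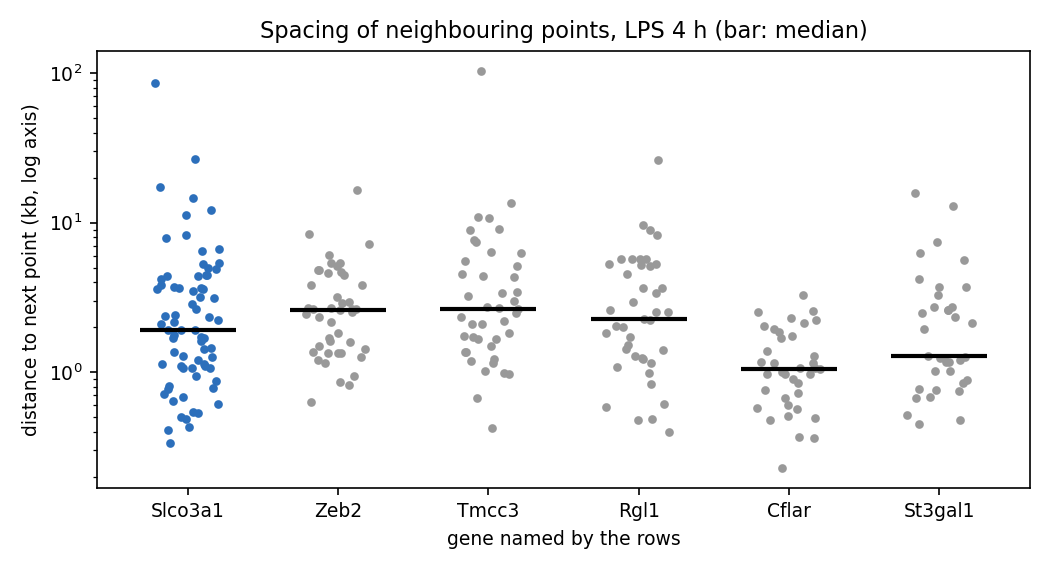
Distance from each 4 h point to the next one naming the same gene (kb, log axis), for Slco3a1 (blue) and the 5 genes with the next most rows (grey), with the median as a bar. The median of Slco3a1, 1923 bp, lies between those of St3gal1 (1277 bp) and Rgl1 (2265 bp), and only Slco3a1 and Tmcc3 have a gap over 50 kb.

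This spacing was within the range of other genes rich in points. The median distance was 2616 bp in Zeb2, 2666 bp in Tmcc3, 2265 bp in Rgl1, 1050 bp in Cflar and 1277 bp in the sialyltransferase gene St3gal1. Among 26 other genes with at least 20 rows the medians ran between 626 and 7716 bp, with 2641 bp in the middle, and 10 were shorter than that of Slco3a1. A widest gap beyond that of Slco3a1 was seen in 3 of the 26.

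When a distance over 10 kb was taken to end a run, the points formed 7 runs. The longest held 40 points over 82.5 kb, from 7746 bp upstream of the 5' end to 74.7 kb into the gene, at a median distance of 1690 bp. The next held 17 points over 40.1 kb, between 186 and 226 kb into the gene, at a median distance of 1818 bp. Between them lay a run of 6 points over 14.2 kb, just before the wide gap. Upstream of the gene stood runs of 4 and 3 points, and near the 3' end a run of 3 and a single point. The densest 50 kb of the gene, with 29 points, fell in the longest run, between 7.66 and 57.2 kb into the gene.

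By the authors' annotation 53 of the 74 points lay in introns, or 71.6% (59.9 to 81.5%), against 40.9% of the 8971 other rows of the range at 4 h. No point of Slco3a1 was placed in an exon or the 3' UTR, classes that held 1.84% and 2.12% of the other rows. Promoter classes, up to 3 kb from any listed start, held 12 points, or 16.2% (8.67 to 26.6%), against 35.9% of the other rows. A point in a promoter class is not counted as intron or exon, even where it lies inside the gene. The remaining 9 were distal intergenic points upstream of the gene, 12.2% against 17.3%. The points of Slco3a1 share 1 gene structure, so these intervals do not test the differences.

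Intron ranks refer to transcript ENSMUST00000098371 with 10 introns. Intron 1 held 22 points, between 7.66 and 47.4 kb into the gene, and intron 2 held 18. Points in promoter classes carry no intron rank. Those at 22.4, 26.6 and 27.4 kb into the gene are therefore not among the 22, although points of intron 1 lie on both sides of them. Introns 3 and 4 held 4 and 5, intron 7 held 3 and intron 9 held 1. No point was placed in introns 5, 6, 8 or 10. Among introns with several points, the points annotated to intron 3 had the smallest extent, 4 within 4.98 kb. Promoter-class points at 206 and 207 kb, between those of introns 3 and 4, are in neither count. The same holds for promoter-class points at 50.1, 52.0 and 52.8 kb, between those of introns 1 and 2. Introns 1 and 2 together held 40 of the 53 intron points, or 75.5% (61.7 to 86.2%), against 50.2% (48.6 to 51.9%) of the 3671 intron points of the other genes. Intron 1 alone held 41.5% (28.1 to 55.9%) against 31.8%, and intron 2 held 34.0% (21.5 to 48.3%) against 18.4%. The lengths of the introns were not available here, so these shares were not set against length.

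**Figure D5:**
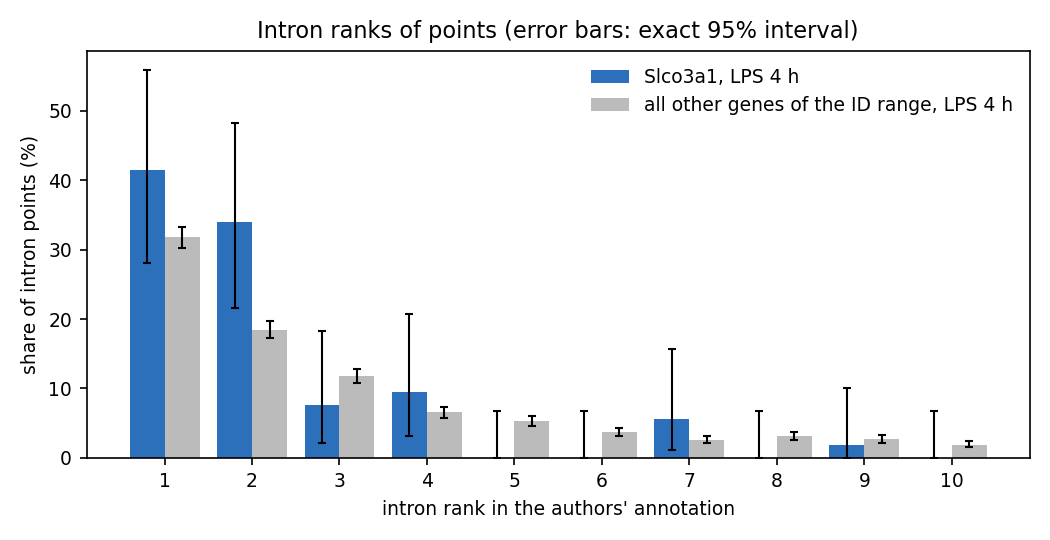
Share of intron points at 4 h by intron rank, for Slco3a1 (blue, 53 points) and all other genes of the shared ID range (grey, 3671 points), with exact 95% Clopper-Pearson intervals. Ranks 1 and 2 hold 41.5% and 34.0% of the Slco3a1 points, against 31.8% and 18.4% for the other genes.

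The comparison genes differed in where their intron points lay. Intron 1 held 15 of the 36 intron points of Tmcc3 (41.7%), close to the share in Slco3a1, and 4 of 23 in St3gal1 (17.4%). In Zeb2, Rgl1 and Cflar it held 0 of 29, 0 of 31 and 0 of 25. The ranks belong to the transcript the authors' annotation chose for each point.

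The rows name 6 transcripts of Slco3a1 with different starts, and most points were far from all of them. The median distance to the listed start was 9232 bp, and 62 of the 74 points lay over 3000 bp away. Of the 12 points in promoter classes, 3 lay within 3 kb of the 5' end of the gene and 9 lay over 3 kb inside it. The point nearest the 5' end of the gene lay 424 bp inside it, 117 bp after the start of ENSMUST00000134539. A second one lay 629 bp before the start of ENSMUST00000138099. Deeper in the gene, single points stood 394 bp before the start of ENSMUST00000136389, which lies 50.4 kb into the gene, and 208 bp before that of ENSMUST00000142175, which lies 208 kb into it. At the start of ENSMUST00000129292, 24.7 kb into the gene, the nearest point was 1929 bp away. Each of the other starts thus had 1 point within 1 kb, and whether these transcripts are made in RAW 264.7 cells was not measured.

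Few points were listed around the gene. Of 31 RefSeq genes within 1 Mb, 6 are protein-coding. St8sia2, a sialyltransferase gene on the 3' side, was named by 1 row at 4 h and 0 at 0 h. That point, at 74028131, lay 263 kb below the lowest point of Slco3a1. Chd2, a chromatin remodeller gene, was named by 0 rows at 4 h and 2 at 0 h, and Akap13, an anchoring protein gene, held 0 points at 4 h and 6 at 0 h inside its span. The ID of Chd2 (ENSMUSG00000078671) and those of the genes that the points inside Akap13 name lie past the end of the 4 h table, so these 0 counts at 4 h are no measurement. Rgma, Fam174b and Sv2b had no row at either time, and where their IDs lie was not determined here. On the 5' side the next listed 4 h point, naming Sec11a, was 6.29 Mb away.

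The other Slco genes looked for were not named. Of the 15 Slco genes looked for, Slco3a1 was named at 4 h and the other 14 were in no row of the 4 h or the 0 h table, although it was not determined whether the 4 h table reaches their IDs. At 0 h, where the table covers the full range of IDs, 0 of 15 were named, which the selection fixed for Slco3a1. Over all 21900 RefSeq protein-coding genes the share was 15.6%. With so few genes in the list, nothing is read from the 0. Of 15 genes that make, break down, carry or sense prostaglandins, 4 were named at 0 h. For 4 h no such count can be given, since only 1 of the 15, Ptgis, is known to lie within the IDs that the 4 h table reaches. Ptgis, the prostacyclin synthase gene, had 2 rows at 4 h and 0 at 0 h. Tbxas1, the thromboxane synthase gene, had 4 rows at 0 h. Ptges, which encodes a prostaglandin E synthase, the receptor gene Ptger4 and the phospholipase gene Pla2g4a had 1 row each at 0 h, and the IDs of these 4 genes lie past the end of the 4 h table.

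The genes most like Slco3a1 in their numbers of rows at 4 h and 0 h, by the Euclidean distance of square-rooted counts over these 2 samples, were Tmcc3 (44 rows at 4 h and 2 at 0 h, distance 2.42), Cflar (38 and 1, distance 2.64), St3gal1 (37 and 1, distance 2.71), and Cd274 and Mx2 (26 and 0 each, distance 3.50). Cd274 encodes the checkpoint ligand PD-L1 and Mx2 an interferon-induced GTPase. All points fell into 1 run in Cd274, in Mx2 and in Cflar, against 3 runs in St3gal1, 5 in Tmcc3 and 7 in Slco3a1. These genes differ in length. Cd274 spans 26.0 kb, Cflar 47.6 kb and St3gal1 74.1 kb, against 279.3 kb in Tmcc3 and 279.4 kb in Slco3a1.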

How the data were processed

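The labels give 6 samples of RAW 264.7 cells, 1 ChIP and 1 input library at each of 0, 4 and 10 h of LPS, grouped by title. GRCm38 (mm10) is the build, and MACS2 2.1.0, BWA 0.7.12 and CASAVA 1.8 are the tools, per the submitters' processing notes. Roles, thresholds and the use of input are not given in the sources used here. The deposited peak tables hold, per the file headers, positions and a signed distance to the start of a listed transcript, which is a score in bp given by the authors, with class, nearest gene and transcript span. The 4 h table ends inside a row, which was left out. The gene span came from RefSeq (GRCm38.p6) and the strand from the tables. Counts, distances, bins of 5 kb, runs and intron ranks were computed with Python 3.11.15, pandas 2.3.3, numpy 2.4.6 and scipy 1.17.1, after a check of these steps on simulated data. There was no test between times. The genes named were Slco3a1, protein-coding genes within 1 Mb, the 5 genes with the next most 4 h rows, the 5 most alike, and the Slco and prostaglandin lists. Any other gene was named with its values known. The members and lists were chosen with earlier results of these data known. The planned motif search was not run.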

Additional observations from a re-analysis of the deposited data

How the results depend on the processing

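No paired analysis was possible because each time has 1 library. The number of 4 h points was 64 inside the gene, 65 with 5 kb and 68 with 20 kb to both sides, and 70 or 58 after points less than 500 or 1000 bp apart were merged, with 0 at 0 h in each of these regions. The share of the gene covered was 34.3% in bins of 2 kb and 64.3% in bins of 10 kb, as narrower bins hold fewer points each. The place of Slco3a1 among genes was 27 per 100 kb of gene and 3 by the most points in 50 kb, the second chosen after seeing the data. The number of runs was 13 when 5 kb ended a run and 3 at 20 kb, also chosen after seeing the data. Of 17 alternatives, 5 moved a value beyond its interval or by over 1.5 times. Intron ranks on another transcript and stricter peak thresholds were not run. Unknown depth and the absence of replicates limit every count.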

Other observations

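The 7 genes with at least 20 rows at 4 h and none at 0 h were, besides Slco3a1, Mx2 with 26 rows, Cd274 with 26, Mx1 with 24, Sp100 with 22, Jak2 with 22 and Aoah with 21. They were named after their values were seen. Mx1 and Mx2, both on chromosome 16, encode interferon-induced GTPases, and Sp100 encodes an interferon-inducible nuclear body protein. Jak2, a cytokine receptor kinase gene, lies on chromosome 19, as does Cd274. Aoah encodes the enzyme that inactivates LPS. Slco3a1 was the transporter gene of the group.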
